A study of Mus musculus with 6 samples.

Results

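Respiratory complex I genes were examined in 6 RNA-seq libraries of mouse heart taken after the left anterior descending coronary artery had been tied off, the standard surgical model of a heart attack. The genes were all those whose symbol begins with Nduf: 51 were in the deposited table of 17524 genes, and 48 of them had enough counts to be tested. Of the 51, 37 encode structural subunits (7 core and 30 accessory), 8 encode assembly factors, 2 are the pair Ndufa4 and Ndufa4l2, and 4 (Ndufab1-ps, Ndufb4b, Ndufb4c and Ndufs6b) are copies or pseudogenes without a listed role. The control group held 3 libraries (35, 36 and 37) labelled WT. The other 3 libraries (34, 41 and 43) are labelled TFEB overexpression, and the design text names the mice as R26-LSL-TFEB [+/+]; Acta2-cre, in which Cre recombinase driven by the Acta2 (smooth muscle actin) promoter removes a stop cassette and switches on TFEB. Acta2 is expressed in smooth muscle and activated fibroblasts, so the transgene is not driven in every cell of the heart. TFEB is the transcription factor that activates lysosome and autophagy genes, and the series asked how it acts on cardiac fibroblasts. All 6 libraries share the ligation. The labels give no age and do not say whether the controls carried Cre or the cassette.

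Complex I, the NADH:ubiquinone oxidoreductase, is the entry point of the respiratory chain: it takes electrons from NADH, passes them to ubiquinone and pumps protons across the inner mitochondrial membrane. Its N module binds NADH, its Q module binds ubiquinone, and its membrane arm pumps protons. Heart muscle makes its ATP largely by respiration and is packed with mitochondria, so these genes are abundant in cardiomyocytes. The proton-pumping core subunits are encoded in mitochondrial DNA and were not analysed here, so every member described is a nuclear gene.

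Depth was even, at 12942480 to 14969287 estimated counts per library. Tfeb itself stood at 34.4, 33.8 and 41.4 CPM (counts per 1e6 counts, TMM-scaled) across controls 35, 36 and 37, against 45.4, 45.3 and 39.4 CPM across TFEB 34, 41 and 43, with a log2 fold change of 0.25 (SE 0.12, edgeR adjusted p = 1.00). The groups overlapped for this gene. The labels describe the material both as heart and as primary fibroblasts. Cardiomyocyte markers (16 of 16 detected) summed to between 68222 and 111030 CPM per library, and resident fibroblast markers (9 of 9 detected) to between 3277 and 5414 CPM. The labels do not tie each library to its own animal, so the p-values describe the spread among these libraries only, which may be technical. Over all genes the 2 most similar pairs of libraries crossed the groups: control 37 with TFEB 43, and control 36 with TFEB 41 (chi-square over its degrees of freedom 9.7 and 14.4, against 45.8 to 156 within groups). Because the tissue is a mixture, fewer cells of a type and less RNA per cell cannot be told apart.

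Genes with an Nduf symbol took from 0.832% of the counts of a library (TFEB 34) to 1.33% (control 37 and TFEB 43). Their share of TPM was larger. On the TPM scale, which corrects for transcript length and so allows genes to be compared, the 51 genes together took 4.02%, 3.75% and 4.71% of all TPM in controls 35, 36 and 37 and 3.05%, 4.17% and 4.69% in TFEB 34, 41 and 43. The share was lowest in TFEB 34, the highest values were in control 37 and TFEB 43, and the groups overlapped. Among the 37 structural subunits, mean TPM over the 6 libraries ran from 103 for Ndufa11 to 2626 for Ndufa3, a 25.5-fold spread. Their median was 834 TPM. Ndufa11 and Ndufa3 had similar counts, at control means of 153 and 158 CPM. The TPM of these 2 genes differ because of the transcript lengths used, so rankings in TPM depend on the annotation. Of the structural subunits, 34 of 37 lay between 250 and 2000 TPM. Core subunits had a median level of 705 TPM and accessory subunits 871 TPM. Assembly factors, which help to build the complex and leave it, were far lower, with a median of 27.8 TPM. Ndufa4, now assigned to complex IV, was the most abundant member at 4440 TPM. Of the 40194 TPM summed over the 51 genes in control 35, the 37 structural subunits held 34573 and Ndufa4 held 4647.

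**Figure D1:**
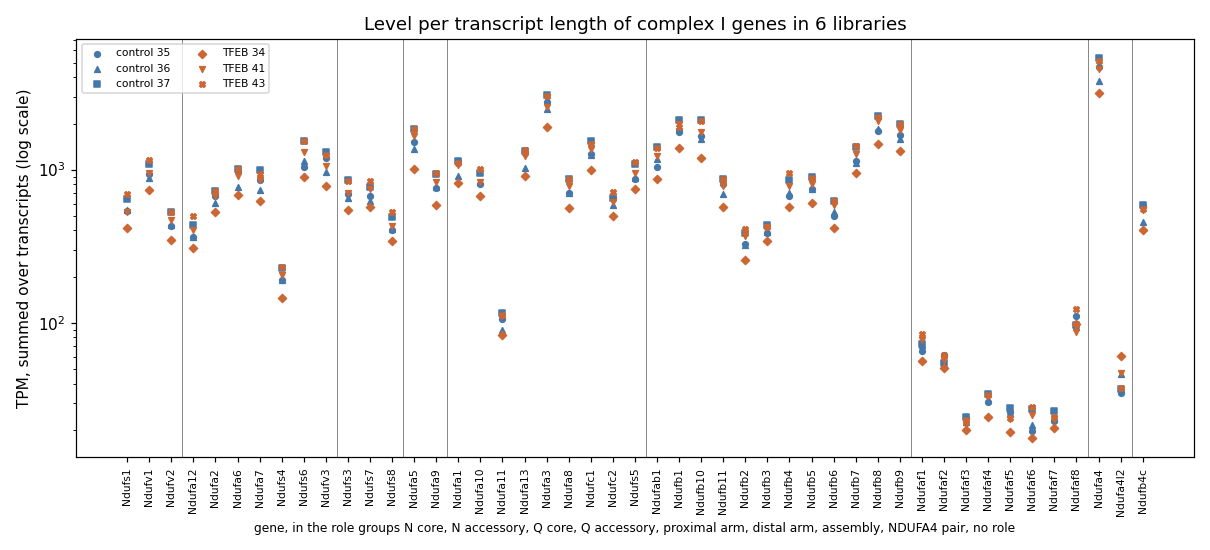
TPM (log axis) of 47 tested genes in each of the 6 libraries, blue for control and orange for TFEB overexpression, in role groups separated by vertical lines. Structural subunits lie mostly between 250 and 2000 TPM, assembly factors lie far below them, and TFEB 34 (orange diamonds) is the lowest point for most genes.

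No complex I gene passed the test between TFEB overexpression and control. With edgeR's quasi-likelihood test over 13565 genes, 0 of 48 members were called at an adjusted p under 0.05, and 0 had an unadjusted p under 0.05. Over all genes the shares were 0% called and 1.21% with an unadjusted p under 0.05. DESeq2 and limma-voom also called 0 members. The smallest unadjusted p among members was 0.126, for Ndufa4l2, and every adjusted p was 1.00.

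Fold changes were small in both directions. Log2 fold changes (TFEB overexpression minus control) ran from −0.18 to 0.28 with a median of −0.05, against 0.00 over all genes tested. A value above 0 was found for 9 of 48 members, where 51% of all genes had one. Standard errors lay between 0.15 and 0.30. The 95% interval of all 48 members held 0 and lay within 1 log2 unit of 0 on both sides, so a change of 2-fold or more between the group means fell outside each interval. In 0 of 48 members did the 3 values of a group lie clear of the other group's, where 4.75% of all genes tested did so.

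The side of 0 on which most members fell rested on single libraries. Without TFEB 34, 46 of 48 members had a value above 0 and the median was 0.14. Without control 37, 41 did and the median was 0.09. Without TFEB 43, 1 did and the median was −0.23. Without control 36, 3 did (median −0.14), and without control 35, 5 did (median −0.08). No member was called in any of these fits.

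**Figure D2:**
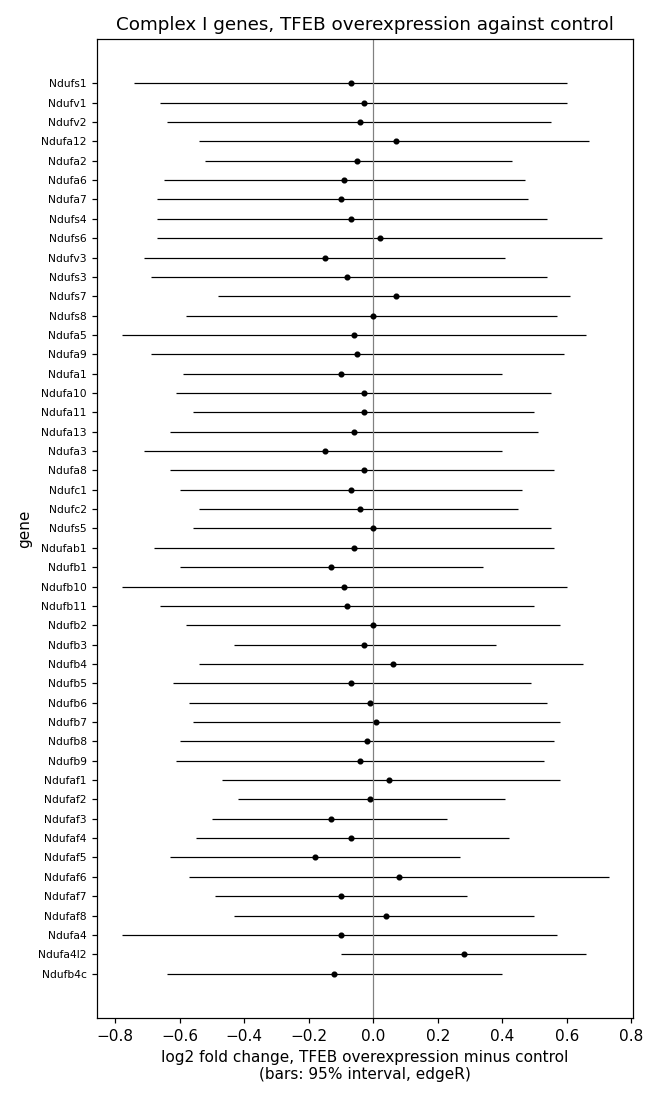
Log2 fold change, TFEB overexpression minus control, of 47 tested genes (points) with the 95% interval of edgeR (bars). Every interval holds 0, and Ndufa4l2 lies farthest to the right at 0.28.

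The N module carries the NADH site and the iron-sulfur clusters that take up its electrons. Ndufs1 (chromosome 1, 63143592 to 63176822, mm10), the largest subunit, stood at 792, 764 and 1027 CPM across controls 35, 36 and 37, against 566, 780 and 1121 CPM across TFEB 34, 41 and 43. TFEB 34 was lowest and TFEB 43 highest, so the TFEB group enclosed all 3 controls. The fitted log2 fold change of −0.07 had an SE of 0.28 (edgeR adjusted p = 1.00).

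Ndufv1, which binds NADH and its flavin cofactor, had the same order at its extremes: 763, 679 and 943 CPM in the controls, against 548, 772 and 1013 CPM in TFEB 34, 41 and 43. Its log2 fold change was −0.03 (SE 0.26). Ndufv2, an iron-sulfur protein beside it, stood at 331, 317 and 434 CPM in the controls, against 245, 363 and 441 CPM in the TFEB libraries (log2 fold change −0.04, SE 0.25). In all 3 core genes of this module TFEB 34 was the lowest library and TFEB 43 the highest.

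The accessory N module genes shared this order. All 7 had their lowest value in TFEB 34, and their highest was in TFEB 43 for 5 genes and in control 37 for 2. Ndufs6, a zinc-binding subunit and the most abundant of them at 1240 TPM, stood at 151, 155 and 230 CPM in the controls, against 120, 188 and 237 CPM in TFEB 34, 41 and 43. Ndufs4, whose loss causes Leigh syndrome, was the least abundant at 198 TPM, with 145, 138 and 188 CPM in the controls, against 102, 157 and 192 CPM in the TFEB libraries. Ndufa12 stood at 168, 159 and 214 CPM in the controls, against 131, 186 and 249 CPM in the TFEB libraries, with a log2 fold change of 0.07 (SE 0.25). None of the 3 separated the groups.

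The Q module links the N module to the membrane arm and holds the ubiquinone site. Ndufs3 stood at 286, 254 and 376 CPM in the controls, against 206, 288 and 374 CPM in the TFEB libraries (log2 fold change −0.08, SE 0.26). Ndufs7, which carries the last iron-sulfur cluster before ubiquinone, stood at 204, 179 and 249 CPM in the controls, against 160, 225 and 276 CPM in the TFEB libraries (0.07, SE 0.23). Ndufs8, an iron-sulfur protein and the least abundant core gene at 433 TPM, stood at 134, 127 and 170 CPM in the controls, against 102, 140 and 187 CPM in the TFEB libraries. Ndufs3 had its highest value in control 37, and Ndufs7 and Ndufs8 had theirs in TFEB 43. In all 3 the groups overlapped and TFEB 34 was lowest.

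Ndufa5, an accessory Q module subunit, varied most of all members between libraries. It stood at 259, 219 and 329 CPM in the controls, against 158, 283 and 334 CPM in TFEB 34, 41 and 43, so the highest library was 2.11 times the lowest. Its log2 fold change was −0.06 (SE 0.30). Ndufa9, which lies at the junction with the membrane arm, stood at 487, 468 and 635 CPM in the controls, against 346, 528 and 662 CPM in the TFEB libraries (−0.05, SE 0.26).

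The accessory subunits of the membrane arm showed the same order. All 9 of the proximal arm and all 12 of the distal arm were lowest in TFEB 34, and all were highest in TFEB 43 or control 37. Ndufa3, a small proximal subunit, stood at 161, 134 and 178 CPM in the controls, against 99.1, 148 and 179 CPM in TFEB 34, 41 and 43 (log2 fold change −0.15, SE 0.23). Ndufa11 is a proximal subunit and had the lowest TPM of the structural genes. It stood at 153, 124 and 181 CPM in the controls, against 111, 161 and 178 CPM in the TFEB libraries (−0.03, SE 0.22). In the distal arm Ndufb10 spanned 2.02-fold, at 414, 372 and 550 CPM in the controls, against 273, 434 and 551 CPM in the TFEB libraries (−0.09, SE 0.29).

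Ndufb8, the most abundant distal subunit at 1932 TPM, stood at 452, 444 and 597 CPM in the controls, against 346, 529 and 597 CPM in TFEB 34, 41 and 43. Ndufb1 stood at 91.7, 91.1 and 109 CPM in the controls, against 64.6, 103 and 99.4 CPM in the TFEB libraries (log2 fold change −0.13, SE 0.20). Ndufb2, the least abundant distal subunit at 345 TPM, stood at 114, 106 and 143 CPM in the controls, against 82.8, 127 and 153 CPM in the TFEB libraries. In each of these the groups overlapped. Ndufb4 has a second expressed copy, Ndufb4c (chromosome 15, 73809449 to 73809933). Mean levels were 755 TPM for Ndufb4 and 519 TPM for Ndufb4c, and how the authors' counting divided reads between the copies is uncertain. Ndufb4b, Ndufs6b and Ndufab1-ps had mean levels under 1 TPM and were not tested.

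Assembly factors followed the subunits with a smaller spread. All 8 were tested. Their lowest value was in TFEB 34 for 7 genes and in TFEB 41 for Ndufaf8 (8.91% of all genes), and their highest was in control 37 or TFEB 43 for 4 genes each. Ndufaf3, which works early in assembly and was the least abundant at 22.6 TPM, stood at 17.0, 15.2 and 18.4 CPM in the controls, against 13.1, 15.2 and 17.8 CPM in TFEB 34, 41 and 43 (log2 fold change −0.13, SE 0.15). Ndufaf5 stood at 18.5, 15.9 and 19.4 CPM in the controls, against 12.5, 15.7 and 19.4 CPM in the TFEB libraries (−0.18, SE 0.19). Without TFEB 34 both log2 fold changes were −0.03, and without TFEB 43 they were −0.25 for Ndufaf3 and −0.35 for Ndufaf5.

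Ndufaf6 stood at 10.1, 10.7 and 15.3 CPM in the controls, against 8.84, 13.5 and 16.0 CPM in TFEB 34, 41 and 43 (log2 fold change 0.08, SE 0.27). Ndufaf8, the most abundant assembly factor at 102 TPM, stood at 15.2, 12.1 and 13.9 CPM in the controls, against 12.4, 12 and 17.9 CPM in the TFEB libraries (0.04, SE 0.19). The groups overlapped in all 8 genes. Assembly factors without an Nduf symbol were tested too: of 12 listed, 11 were tested, 0 were called, 3 had a value above 0, and the median log2 fold change was −0.03. Among them Nubpl, which delivers iron-sulfur clusters to complex I, stood at −0.19 (SE 0.16) and Tmem126b, a membrane arm assembly factor, at −0.10 (SE 0.15). Nubpl was at −0.06 without TFEB 34 and −0.28 without TFEB 43.

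Ndufa4 and its paralogue Ndufa4l2 had opposite extremes: TFEB 34 was the lowest library for the first and the highest for the second. Ndufa4 was first described as a complex I subunit and is now assigned to complex IV, and Ndufa4l2 is known as a gene induced by hypoxia through HIF-1. Ndufa4 (chromosome 6, 11900372 to 11907450) stood at 649, 499 and 779 CPM across controls 35, 36 and 37, against 403, 636 and 756 CPM across TFEB 34, 41 and 43 (log2 fold change −0.10, SE 0.28).

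Ndufa4l2 (chromosome 10, 127509274 to 127517154) stood at 14.6, 18.3 and 16.6 CPM in the controls, against 23.4, 19.6 and 17.0 CPM in TFEB 34, 41 and 43. It was the only tested member with its highest value in TFEB 34 (26.8% of all genes) and the only one with its lowest in control 35 (13.4% of all genes). The groups overlapped, since TFEB 43 lay below control 36. The mean was 16.5 ± 1.85 CPM in controls and 20.0 ± 3.21 CPM with TFEB (SD, n = 3 each). Its log2 fold change was 0.28 (SE 0.16, 95% interval −0.10 to 0.66, edgeR adjusted p = 1.00). It was 0.15 without TFEB 34 and 0.38 without TFEB 43, and the latter was the fit in which its unadjusted p fell under 0.05. On the TPM scale Ndufa4 was 134, 82.7 and 144 times as abundant as Ndufa4l2 in the controls and 52.1, 97.6 and 137 times in TFEB 34, 41 and 43.

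**Figure D3:**
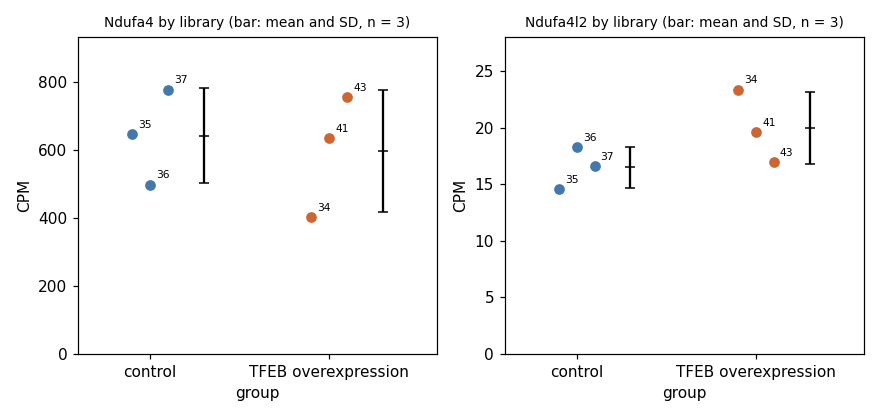
CPM of Ndufa4 (left) and Ndufa4l2 (right) in the 3 control and 3 TFEB overexpression libraries, numbered as in their titles, with the mean and SD of each group (n = 3). TFEB 34 is the lowest point for Ndufa4 (403 CPM) and the highest for Ndufa4l2 (23.4 CPM).

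The differences between libraries were larger than those between groups and were shared across the complex. TFEB 34 was the lowest library for 46 of 48 tested members, where it was the lowest for 27.4% of all genes tested. TFEB 43 was the highest for 31 members (25% of all genes) and control 37 for 16 (11.9% of all genes). In 46 members TFEB 34 was the lowest and TFEB 43 or control 37 the highest. The ratio of the highest to the lowest library ran from 1.4 to 2.11, with a median of 1.75.

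**Figure D4:**
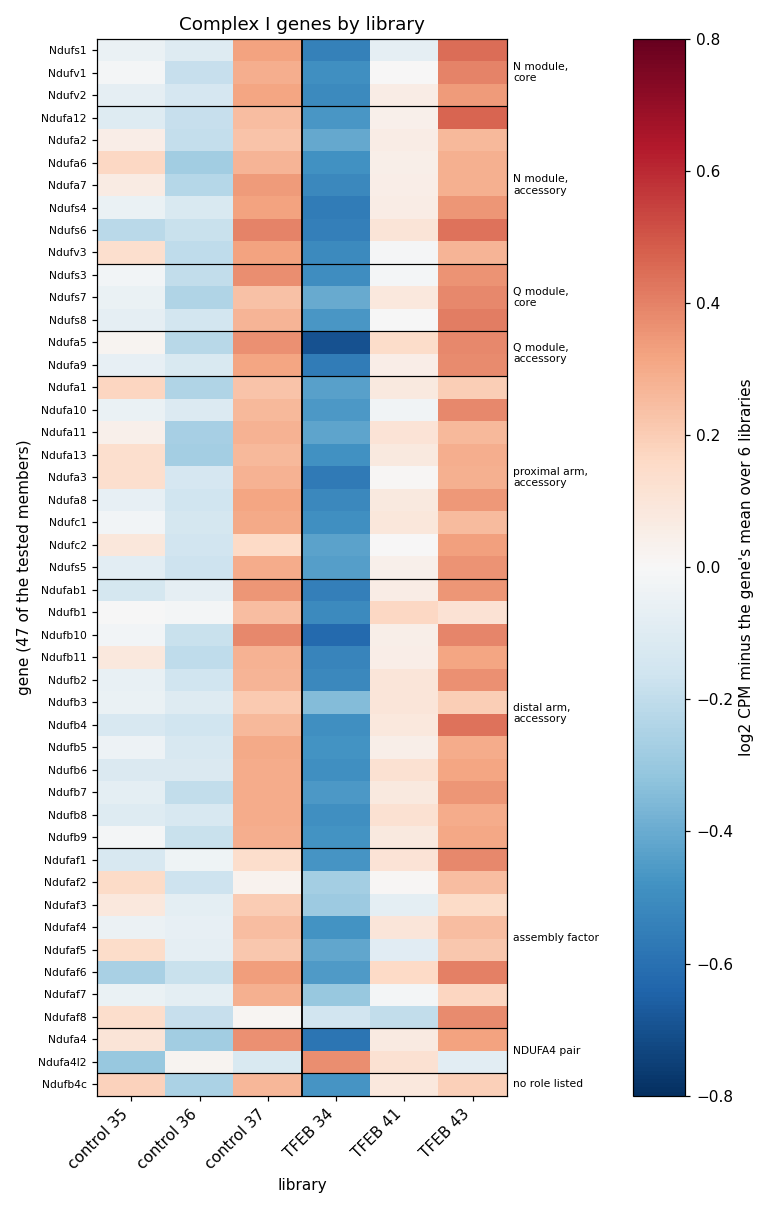
Heat map of log2 CPM of each of 47 tested genes in each library, relative to the gene's mean over the 6 libraries, in role groups separated by horizontal lines and with controls left of the vertical line. Nearly every row is blue in TFEB 34 and red in control 37 and TFEB 43. Ndufa4l2, red in TFEB 34, is an exception.

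To summarise a list, each tested gene's log2 CPM was set against its own mean over the 6 libraries, and these differences were averaged within each library. For the 37 structural subunits these levels were −0.02, −0.17 and 0.29 in controls 35, 36 and 37 and −0.49, 0.06 and 0.33 in TFEB 34, 41 and 43. The group means were 0.04 ± 0.23 and −0.04 ± 0.42 (SD, n = 3 each). The range from the lowest to the highest library was 0.83 for structural subunits, a 1.77-fold difference, and 0.63 for assembly factors. It was 0.86 for core and 0.82 for accessory subunits, 0.86 for the N module and 0.89 for the Q module.

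Structural subunits kept close proportions to each other. Measured against the mean level of the 37 subunits in the same library, the SD over subunits was 0.05 to 0.09 log2 units in each library. The range of a single subunit over the 6 libraries on this relative scale had a median of 0.16 log2 units. It was smallest for Ndufb9 (0.04) and largest for Ndufb1 (0.37), which was at −0.22 in TFEB 43 and 0.15 in control 36. Ndufs6 was relatively low in control 35 (−0.20), and Ndufa1, a subunit of the proximal arm, was relatively high there (0.19). On this relative scale 4 of the 37 subunits were above all controls in every TFEB library, and 1 was below. A share over all genes was not computed on this scale, and these differences were not tested.

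Other nuclear genes of the respiratory chain had the same order of libraries. The levels of complexes II to V (47 genes) were −0.18 and 0.29 in controls 36 and 37 and −0.47, 0.05 and 0.31 in TFEB 34, 41 and 43, with control 35 near 0. None of the 47 was called, 7 had a log2 fold change above 0 (51% of all genes did), and the median was −0.06. As for complex I, the sign of that median rested on single libraries: it was 0.13 without TFEB 34, 0.09 without control 37, −0.16 without control 36 and −0.26 without TFEB 43. Medians were −0.03 for complex II, −0.05 for complex III, −0.04 for complex IV and −0.07 for complex V. Of the genes with the smallest p in each, the succinate dehydrogenase genes Sdhb and Sdha both stood at −0.04 (SE 0.27 and 0.31), Uqcrh and Uqcrb of complex III both at −0.09 (SE 0.24 and 0.28), and Atp5k and Atp5mpl of the ATP synthase at −0.13 (SE 0.23) and −0.11 (SE 0.19).

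In complex IV the 2 genes with the smallest p were isoforms outside the usual heart form. Cox4i2, an isoform known for its response to low oxygen, stood at 5.77, 5.76 and 7.23 CPM in the controls, against 7.44, 8.27 and 7.60 CPM in TFEB 34, 41 and 43 (log2 fold change 0.31, SE 0.17, edgeR adjusted p = 1.00). All 3 TFEB values lay above the controls, as in 2.24% of all genes tested. Cox6b2, known from testis, stood at −0.48 (SE 0.35), with group means of 1.09 CPM in controls and 0.78 CPM in TFEB libraries.

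Regulators of mitochondrial genes were close to 0 as a group. Of 11 listed, 0 were called, 6 had a value above 0, and the median log2 fold change was 0.02. Nrf1, which activates respiratory chain genes, stood at 19.8, 18.8 and 19.8 CPM in the controls, against 17.2, 16.9 and 16.2 CPM in TFEB 34, 41 and 43. All 3 TFEB values in CPM lay below the controls, as in 2.51% of all genes tested. The log2 fold change was −0.21 (SE 0.10, unadjusted p = 0.063, edgeR adjusted p = 1.00). On the TPM scale the groups overlapped for Nrf1, with TFEB 34 at 10.4 TPM and control 37 at 10.1 TPM. Ppargc1b, a coactivator of mitochondrial genes, stood at 0.36 (SE 0.32), at 0.64 without TFEB 34 (unadjusted p under 0.05), 0.19 without control 35 and 0.18 without TFEB 43. Of 16 mitochondrial ribosome genes, 13 had a value above 0, where 51% of all genes had one (median 0.05, 0 called). That median was 0.21 without TFEB 34 and −0.11 without TFEB 43. TFEB 34 was the lowest library for 14 of the 16 (27.4% of all genes) and TFEB 43 the highest for all 16 (25% of all genes). Mrpl20 stood at 0.12 (SE 0.09) and Mrpl17 at 0.08 (SE 0.16).

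Markers of other cell types also differed between libraries. Matrix and myofibroblast genes (14 of 14 detected) summed to 9423, 16161 and 3280 CPM across controls 35, 36 and 37, against 26683, 13476 and 2415 CPM across TFEB 34, 41 and 43. The libraries with the lowest matrix sums, TFEB 43 and control 37, had the highest complex I level, and TFEB 34, with the highest matrix sum, had the lowest. Macrophage markers (10 of 10 detected) summed to between 594 and 1052 CPM in controls and between 528 and 1444 CPM in TFEB libraries, with the extremes in the same 2 TFEB libraries, 43 and 34.

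Cardiomyocyte markers summed to 78759, 79952 and 102560 CPM in the controls, against 68222, 92697 and 111030 CPM in TFEB 34, 41 and 43, with TFEB 34 lowest and TFEB 43 highest. As a mean level over its 16 genes, which weights each gene equally, the list was at −0.32 in control 35, the lowest, −0.16 in TFEB 34 and 0.19 in TFEB 41, the highest. With that level as a covariate, edgeR called 0 of 48 complex I members, 2 had a value above 0, and the median was −0.14. Cytosolic ribosome genes (16 tested) had opposite extremes, at 0.17 in TFEB 34, the highest, and −0.18 in TFEB 43, the lowest. Adipocyte markers (6 of 6 detected, 5 tested) had the median log2 fold change farthest from 0 of all lists, at −4.15, and −2.21 without control 36. Of the 5, 4 lay below all controls in every TFEB library (2.51% of all genes). An unadjusted p under 0.05 in edgeR was found for 4 (1.21% of all genes), and 0 were called. All 5 were lowest in TFEB 34 and highest in control 36. Their summed level, 486 to 769 CPM in controls and 342 to 484 CPM in TFEB libraries, differed less. Of the other lists, smooth muscle markers (6 of 6) summed to 408 to 535 CPM in controls and 523 to 685 CPM in TFEB libraries. Of these 6, 1 lay above all controls in every TFEB library (2.24% of all genes). In edgeR 1 of the 6 had an unadjusted p under 0.05 (1.21% of all genes). Red blood cell markers (5 of 5) summed to 782 to 3924 and 818 to 3274 CPM in the same order of groups. Resident fibroblast markers summed to 3605 to 5414 and 3277 to 3622 CPM. Their median log2 fold change was −0.28, and −0.03 without control 35. In edgeR 1 of the 9 had an unadjusted p under 0.05 (1.21% of all genes). Endothelial markers (8 of 8) summed to 1332 to 1484 and 1306 to 1433 CPM. Of these 8, 1 lay below all controls in every TFEB library (2.51% of all genes). Neutrophil and lymphocyte markers (6 of 6) summed to 6.84 to 10.4 and 5.78 to 13.5 CPM. No gene of these lists was called, and no marker of these lists was at 0 in all libraries. The part of the matrix, macrophage, adipocyte, smooth muscle, red blood cell, resident fibroblast, endothelial, neutrophil and lymphocyte genes in the complex I result was not tested.

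**Figure D5:**
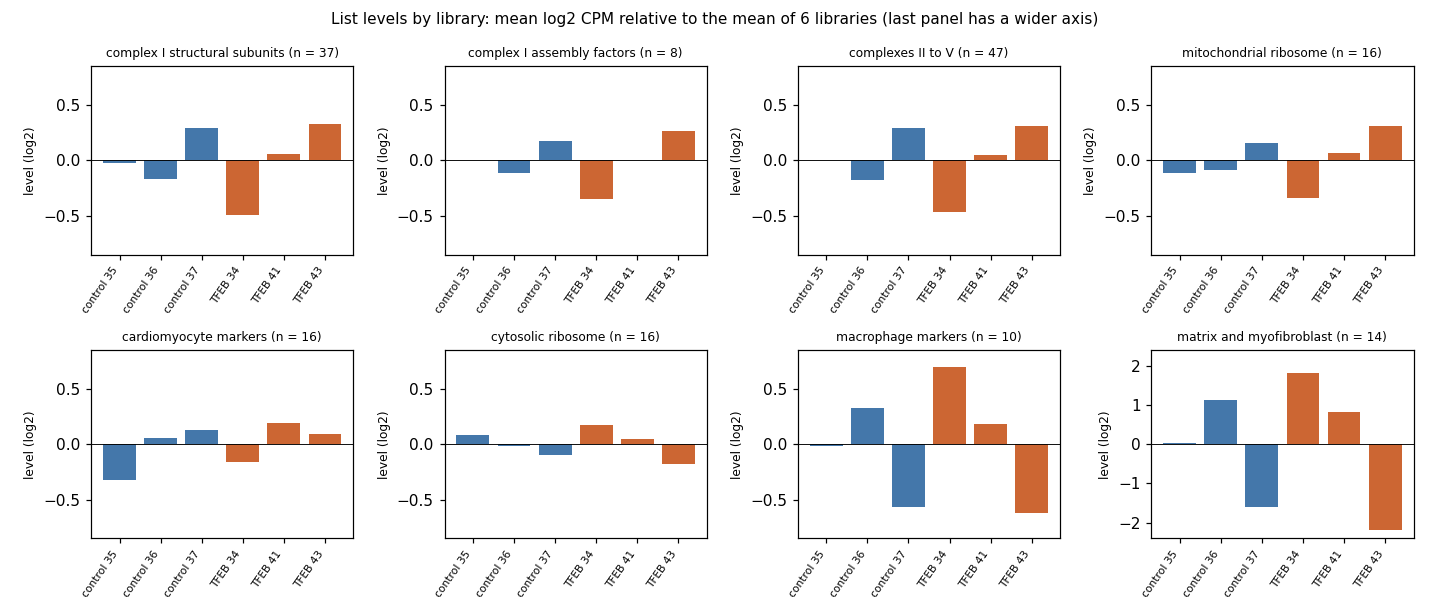
Level of 8 gene lists in each library (bars, log2 units, blue for control and orange for TFEB overexpression), with the number of tested genes above each panel and a wider axis in the last panel. Complex I structural subunits are lowest in TFEB 34 (−0.49) and highest in TFEB 43 (0.33), while matrix and myofibroblast genes are highest in TFEB 34 (1.82) and lowest in TFEB 43 (−2.19).

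The promoters of the members were searched for the letters of known motifs, and any link to their shared order of libraries was not tested. RefSeq windows (GRCm38.p6) from 250 bases before to 50 after the transcription start were held for 41 of the 48 tested genes, in 43 windows, and both strands were read. The E-box core CACGTG, which TFEB and many other factors bind, was in 2 of 41 genes (Ndufa7 and Ndufv1), or 4.88%. By window it was in 3 of the 43, against 9.63% of 13813 windows of all genes tested and 7.15% of all 32851 windows. The longer form TCACGTGA, which contains that core and is close to the TFEB consensus, was in 1 gene (Ndufa7), or 2.44%. By window it was in 2 of the 43, against 1.69% of windows of genes tested. The Ndufa7 windows overlap and hold the same match, which is therefore counted in both, here and for the core. The NRF1 motif (GCGCA, any base, then GCGC) was in 9 genes, or 22%, against 9.15%. AAGATGGC, the core of the YY1 motif, was in 8 genes, or 19.5%, against 4.06%. AAGGTCA, the half-site bound by oestrogen-related receptors, was in 3 genes, or 7.32%, against 3.21%. The percentages of members count genes and those set against them count windows, so the units differ. By window the NRF1, YY1 and half-site letters were in 10, 8 and 3 of the 43 member windows. The Ndufa5 windows also overlap and hold the same NRF1 match, which is counted in both. A match in letters is a description and not a bound site.

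Of these, 4 stretches of 30 bases show matches to the motifs of the overexpressed factor and of NRF1, an activator of respiratory chain genes. They are written 5′ to 3′ on the strand of the gene, with the match in capitals.
Ndufa7 (E-box, chr17:33824488-33824517, plus strand): gcggagaggagTCACGTGAgcaggggatgc
Ndufv1 (E-box, chr19:4012907-4012936, minus strand): agcagagggcgaCACGTGagcctggtttac
Ndufs6 (NRF1, chr13:73328483-73328512, minus strand): ccgccgactgctgtGCGCCTGCGCcggcac
Ndufb4 (NRF1, chr16:37654371-37654400, minus strand): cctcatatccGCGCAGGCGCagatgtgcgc
The Ndufa7 stretch overlaps an exon of Rps28 on the opposite strand in GENCODE M21, those of Ndufs6 and Ndufb4 overlap an exon of their own gene there, and that of Ndufv1 overlaps none. Ndufa7, with the TFEB-type match, stood at 135, 110 and 163 CPM across controls 35, 36 and 37, against 90.4, 134 and 157 CPM across TFEB 34, 41 and 43, with a log2 fold change of −0.10 (SE 0.24, edgeR adjusted p = 1.00). Ndufb4 stood at 77.0, 75.3 and 101 CPM in the controls, against 60.0, 89.2 and 114 CPM in the TFEB libraries (0.06, SE 0.25). Both genes were lowest in TFEB 34, as 46 of the 48 tested members were.

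The deposited table divides 24 of the tested members among more than 1 transcript model. In 14 of them a single model took over 90% of the gene's TPM. For Ndufs1 the leading model took 67.58% and the next 22.87%, for Ndufb2 the shares were 64.92% and 35.08%, and for Ndufaf1 58.81% and 35.59%. How reads shared by the models of a gene were divided was decided by the authors' quantification. Counts summed per gene do not depend on it. TPM summed per gene can, because each model's TPM is scaled by its own length.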

How the data were processed

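The authors deposited 1 table of 62498 RefSeq transcripts with Entrez gene numbers. Per the file headers, the authors estimated counts per transcript (an estimated count need not be whole). They also deposited a TPM and an FPKM per transcript and library, scaled for transcript length and depth. The submitters' processing notes name HISAT2 2.1.0, Bowtie2 2.3.4.3, RSEM 1.3.1, DESeq2 1.4.5 and mm10, with no roles. Annotation release, strand setting and filters: not given in the sources used here. The 6 normalised count columns are empty.

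Counts were summed per gene and rounded, and symbols came from RefSeq's GRCm38.p6 table (117 genes, 0.51% of counts, had none). Both groups were fitted with edgeR 4.0.16 in R 4.3.3 (filterByExpr, TMM, quasi-likelihood test, two-sided, Benjamini-Hochberg over 13565 genes, called at 0.05). Alternatives used DESeq2 1.42.0, limma 3.58.1 (voom on counts, and log2 of the deposited TPM and FPKM plus 1 or 0.1), other scalings and filters, a covariate, and each library left out. The fit was tested on simulated data. Counts of libraries of 1 group differed by more than sampling noise (chi-square over its degrees of freedom 45.8 to 156), so none was treated as a library deposited more than once. This does not show separate animals. The members, lists and naming rule were chosen with earlier results of these data known. The named genes are the core subunits, the Ndufa4 pair, the members with the smallest p, the widest range or the highest or lowest TPM of a role, and 2 genes per related list. One core subunit is not reported here; it stays in the fits, counts and medians. Genes named beyond that rule (Ndufa1, Ndufa7, Ndufb4, Ndufb9, Ndufaf1 and the copies without a role) were chosen after their values were seen.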

Additional observations from a re-analysis of the deposited data

How the results depend on the processing

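No complex I gene was called under any of the 17 alternatives, and none of 646 recomputed values of 38 named genes changed its side of the threshold, but 68 changed sign. DESeq2 called 1 gene over the whole table, which was not a complex I gene. With the cardiomyocyte level as covariate, 2 members had a value above 0 and the median was −0.14. Leaving out 1 library at a time, the number of members above 0 ran from 1 (without TFEB 43) to 46 (without TFEB 34), and the median from −0.23 to 0.14.

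Log2 fold changes that changed sign when a library was left out are given from lowest to highest. They were −0.17 to 0.15 for Ndufa11, −0.19 to 0.27 for Ndufa12, −0.35 to 0.05 for Ndufa3, −0.31 to 0.12 for Ndufa4, −0.29 to 0.20 for Ndufa5, −0.28 to 0.17 for Ndufa9, −0.11 to 0.29 for Ndufaf6 and −0.17 to 0.16 for Ndufaf8. They were −0.23 to 0.06 for Ndufb1, −0.33 to 0.14 for Ndufb10, −0.21 to 0.21 for Ndufb2 and −0.19 to 0.18 for Ndufb8. They were −0.35 to 0.14 for Ndufs1, −0.31 to 0.12 for Ndufs3, −0.28 to 0.15 for Ndufs4, −0.22 to 0.25 for Ndufs6, −0.13 to 0.25 for Ndufs7, −0.25 to 0.19 for Ndufs8, −0.27 to 0.17 for Ndufv1 and −0.25 to 0.16 for Ndufv2. For other genes they were −0.35 to 0.18 for Sdha, −0.28 to 0.17 for Sdhb, −0.32 to 0.13 for Uqcrb, −0.26 to 0.11 for Uqcrh, −0.26 to 0.07 for Atp5k, −0.23 to 0.06 for Atp5mpl, −0.19 to 0.02 for Tmem126b and −0.02 to 0.21 for Mrpl17. Without a change of sign, Cox6b2 ran from −0.68 to −0.30 and Mrpl20 from 0.06 to 0.17.

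Other settings changed signs too. With the covariate, Ndufa12 was at −0.03, Ndufaf6 at −0.04, Ndufs6 at −0.12 and Ndufs7 at −0.02. DESeq2 gave 0.0043 for Ndufb2 and 0.0029 for Ndufs8, and its size factors in edgeR gave 0.0021 and 0.00077. Ndufb2 was at 0.00011 without a filter and 0.0011 with upper-quartile scaling. Ndufs6 was at −0.01 on log2(FPKM + 1), −0.00054 on log2(TPM + 0.1) and −0.00052 on log2(TPM + 1), with or without a filter. The cause was not tested. No paired analysis was possible because the groups share no replicate number. With 3 libraries a group and standard errors of 0.15 to 0.30, small changes were not detectable.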
